A study of Homo sapiens with 6 samples.

Results

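Dematin and its partners in the spectrin membrane skeleton were followed through 6 tumors of a human melanoma line. The genes described are 9 of the 60617 gene identifiers counted: DMTN (dematin), ADD1, ADD2 and ADD3 (the adducins), SPTAN1 and SPTBN1 (non-erythroid spectrins), EPB41 and EPB41L2 (the EPB41 family), and ANK2 (an ankyrin). DMTN was taken up because of its difference between treated and untreated tumors, the second largest of 20423 genes tested, and the other 8 because their products join the same structure. They were selected on raw counts of treated against untreated tumors and of the naming sets described next, with treated and untreated values already known. Differences of these 9 genes in those comparisons are therefore given as a description, with no test.

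All tumors were xenografts of WM983-B, an established melanoma line. The anle138b group held 3 tumors treated systemically with anle138b, a diphenyl-pyrazole compound that interferes with α-synuclein oligomers, and the untreated group held 3 tumors that the labels give as receiving no treatment. The sources used here do not give dose, duration, or the strain and age of the hosts. They also do not say whether each tumor grew in its own animal, so the p-values reflect library-to-library spread, which may be technical. Titles fell into a 4-library set (replicates 1 and 2 of each group) and a 2-library set (replicate 3 of each group), whose meaning was not given. Libraries held 12400782 to 27599159 counts, and both of the 2-library set were the deepest. Melanoma markers were abundant in every tumor: all 8 on the list passed the low-count filter, and their summed level was 14000 to 19000 CPM (counts scaled to library size with TMM factors).

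The membrane skeleton is a protein mesh under the plasma membrane. Long spectrin tetramers are tied at their ends to short actin filaments, and junctional proteins hold these knots together: adducin caps the filament and recruits spectrin, EPB41 strengthens the contact of spectrin with actin, and dematin bundles actin and helps link the junction to membrane proteins. Ankyrins attach the middle of the spectrin strand to channels and adhesion molecules. The mesh is best known from red blood cells, where dematin was first purified, and non-erythroid versions of its parts are found in most tissues, including neurons.

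The adducins show how unevenly members of 1 family were used in these tumors, so start regions of ADD1 and ADD2 are printed here. Both genes make subunits of the same heteromer, but ADD1 was plentiful in each tumor while ADD2 was close to absent in the 4-library set. Each window runs from 250 bases before to 50 bases after a RefSeq start (GRCh38.p14), 5′ to 3′ on the strand of the gene, with every CpG in capitals. RefSeq windows were found for 8 of the 9 genes, all but DMTN. The ADD1 window is chr4:2843594-2843893 on the plus strand, and the ADD2 windows are chr2:70768151-70768450 (outer start) and chr2:70767666-70767965 (inner start) on the minus strand.
ADD1: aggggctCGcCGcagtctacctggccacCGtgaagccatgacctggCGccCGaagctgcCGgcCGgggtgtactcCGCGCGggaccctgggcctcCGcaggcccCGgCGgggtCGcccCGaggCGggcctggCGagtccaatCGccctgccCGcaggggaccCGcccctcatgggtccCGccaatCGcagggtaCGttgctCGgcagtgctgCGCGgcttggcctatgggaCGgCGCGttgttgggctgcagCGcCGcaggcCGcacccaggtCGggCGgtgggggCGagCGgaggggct
ADD2 outer start: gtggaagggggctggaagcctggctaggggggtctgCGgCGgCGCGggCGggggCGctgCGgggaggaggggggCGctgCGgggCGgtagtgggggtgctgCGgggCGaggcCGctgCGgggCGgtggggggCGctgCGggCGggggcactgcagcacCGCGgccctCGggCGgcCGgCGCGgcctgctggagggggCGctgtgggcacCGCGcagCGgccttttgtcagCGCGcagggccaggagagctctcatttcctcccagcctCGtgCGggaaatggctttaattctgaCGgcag
ADD2 inner start: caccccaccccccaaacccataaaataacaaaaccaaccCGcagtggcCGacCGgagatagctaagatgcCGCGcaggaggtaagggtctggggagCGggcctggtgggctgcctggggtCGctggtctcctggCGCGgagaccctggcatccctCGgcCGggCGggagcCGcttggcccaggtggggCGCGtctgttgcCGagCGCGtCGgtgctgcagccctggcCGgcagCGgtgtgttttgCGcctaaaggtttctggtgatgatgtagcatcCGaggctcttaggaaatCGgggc
The ADD1 window held 36 CpG, and 87.3% of the 35116 windows in the table held fewer. The outer and inner ADD2 windows held 34 and 24 CpG, with 84.4% and 66.1% of windows holding fewer. The letters GGGCGG, read on both strands and sharing their CG with the CpG count, occurred 2 times in the ADD1 window and 5 and 1 times in those of ADD2, and in 45% of all windows. The letters TATAAA, on both strands, were in none of the 3 windows and in 11.5% of all. Both genes thus had start regions rich in CpG, and no measurement of the DNA itself accompanies these counts.

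DMTN encodes dematin, an actin-bundling protein (chromosome 8, 22048995 to 22082527, plus strand, GRCh38). Its counts were 297, 259 and 851 in anle138b replicates 1 to 3, and 6, 5 and 24 in untreated replicates 1 to 3. In CPM these were 22.7, 20.7 and 30.1 in the treated tumors. The untreated tumors had 0.365, 0.37 and 1.02 CPM, with exact Poisson 95% intervals of 0.134 to 0.795, 0.12 to 0.864 and 0.652 to 1.51, which cover counting error only. Every treated library was high and every untreated library low, with no overlap: the lowest treated value was 20.7 CPM and the highest untreated value 1.02 CPM. Untreated replicate 3, of the 2-library set, was the highest of the untreated tumors, and anle138b replicate 3, of the same set, the highest of the treated. The untreated values were above the level that 3 counts stand for (0.127 to 0.222 CPM in them). The intervals of untreated replicates 1 and 2 reached below that level (0.183 and 0.222 CPM), and only that of replicate 3 lay above it (0.127 CPM).

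The fitted log2 difference of DMTN was 5.33 ± 0.22 (SE, n = 3 per group), or 40.2-fold. Within the 4-library set the log2 ratio of mean CPM was 5.88, and within the pair of the 2-library set it was 4.89. The difference between these sets was tested, since the choice of genes did not use it: the interaction was -0.98 ± 0.46 on the log2 scale and was not called (edgeR quasi-likelihood test, adjusted p = 0.749, unadjusted p = 0.0613). None of the 8 members tested had a called interaction in edgeR, DESeq2 or limma voom, beside 0, 31 and 0 of all 20423 genes. In edgeR 1345 genes and 0 members had an unadjusted p under 0.05. Of the 8 members that passed the low-count filter, 1 was called higher with anle138b, DMTN itself, beside 0.656% of all genes tested, and 0 were called lower, beside 0.397%. The choice of DMTN used this comparison, so nothing is read from that count. DMTN passed the filter through the treated libraries, where it was high.

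Per length, DMTN was low in untreated tumors and near the middle of the genes tested in treated tumors. Scaled CPM per kilobase of merged exons (RPKM) was 5.08, 4.62 and 6.73 in treated and 0.0817, 0.0828 and 0.228 in untreated tumors. Among 13687 protein-coding genes tested, 1.06% had a lower mean RPKM than DMTN in untreated tumors and 48.1% in treated tumors. The filter removed genes that were low in both groups, and DMTN passed it through the treated libraries. Its low place in untreated tumors therefore partly follows from the filter, and nothing is read from these shares. Set against its junction partners, DMTN stood at 0.171, 0.162 and 0.185 of the summed adducin RPKM in treated tumors, and at 0.00333, 0.00287 and 0.00752 in untreated tumors. Even in treated tumors, then, dematin RNA was a minor component beside adducin RNA on the RPKM scale.

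**Figure D1:**
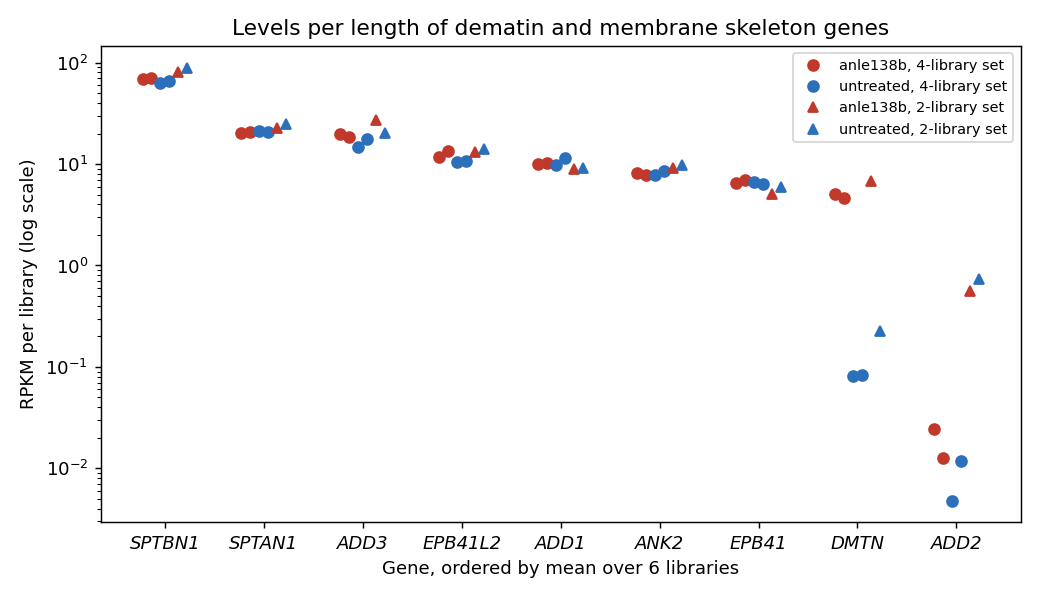
RPKM (log scale) of the 9 genes in each library, ordered by mean, with colour for group and marker shape for naming set. DMTN is split by treatment, with treated tumors from 4.62 to 6.73 and untreated tumors from 0.0817 to 0.228, ADD2 is split by naming set, and the other 7 genes lie within narrow ranges.

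Red-cell and host markers were read beside DMTN, since dematin is abundant in red cells. Of 18 erythroid genes, 4 passed the filter and 0 were called, beside 1.05% of all genes tested, a count too small to read. HBA1, HBM, AHSP and GYPB had no count in any library. Erythroid genes summed to 5.05 to 7.27 CPM in treated and 5.78 to 7 CPM in untreated tumors, which overlapped. Platelet genes summed to 8.74 to 12.1 CPM in treated and 10.1 to 11.9 CPM in untreated tumors, with PF4 and PPBP at 0. Skeletal muscle genes summed to 34.7 to 83.9 CPM in treated and 37.6 to 52.1 CPM in untreated tumors. The highest of these was anle138b replicate 2, where CKM had 131 counts against 1 to 11 elsewhere. How mouse reads were handled was not given, and in bulk tumors more cells with a transcript and more transcript per cell cannot be told apart. Whether red cells or host tissue added to the DMTN counts was not tested.

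Adducins cap actin filaments at the spectrin junction as heteromers of an alpha subunit (ADD1) with a beta (ADD2) or gamma (ADD3) subunit. ADD1 (chromosome 4, 2843857 to 2930076) had 130, 135 and 116 CPM in treated and 129, 149 and 120 CPM in untreated tumors. Its groups overlapped, and its log2 difference was -0.06 ± 0.10 (SE, n = 3). ADD3 (chromosome 10, 109996368 to 110135565) had 130, 120 and 176 CPM in treated tumors. Its untreated values were 95.7, 114 and 133 CPM, below the treated values within each naming set but overlapping across sets. Its log2 difference was 0.30 ± 0.10, the largest in size after DMTN among the 8 genes that passed the filter.

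ADD2 (chromosome 2, 70607618 to 70768225, minus strand), the beta subunit, known mainly from red cells and brain, did not follow treatment but the naming sets. It had 4 and 2 counts in treated and 1 and 2 counts in untreated tumors of the 4-library set, against 201 (treated) and 220 (untreated) in the 2-library set. In CPM the 4-library set stood at 0.0609 to 0.306, around the 0.183 to 0.24 CPM that 3 counts stand for there, and the 2-library set at 7.11 and 9.33. Summed over libraries, the level in the 2-library set was 50.1 times that in the 4-library set (exact Poisson 95% interval 26.1 to 110, for counting error only). ADD2 was the 1 member that failed the low-count filter, because only 2 libraries had counts above it. With a filter by naming set, an alternative chosen after seeing the data, its set difference was 5.58 ± 0.35 on the log2 scale, and its treatment difference -0.19 ± 0.33. That filter called 2 members between sets, beside 18.7% of all genes tested.

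Per length of merged exons, ADD3 gave the larger part of adducin RNA, with 66.6%, 64% and 74% in treated and 59.7%, 60.5% and 67.2% in untreated tumors. Treated and untreated shares overlapped, but within each naming set the treated tumors were higher, and the lowest share of the 2-library set was above the highest of the 4-library set. ADD2 made up 1.54% (treated) and 2.43% (untreated) in the 2-library set and 0.0196% to 0.0811% in the 4-library set. ADD1 made up the rest, 24.4% to 40.3%. Which of ADD1 and ADD3 came first depended on the length used. With the longest transcript as length, ADD1 held 53.1% and 52.2% in untreated replicates 1 and 2, above the 46.9% and 47.8% of ADD3, and ADD3 stayed ahead in the other 4 libraries. The mean ADD3 share was then 50.1% in the 4-library set and 59.7% (in place of 70.6%) in the 2-library set, and the set difference of ADD2 was unaffected in direction (1.52% there against 0.0338% in the 4-library set).

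The spectrins were the most abundant members. SPTBN1 (chromosome 2, 54456285 to 54671445), the beta-II chain that carries the actin and ankyrin sites, had 1282, 1305 and 1510 CPM in treated and 1172, 1210 and 1654 CPM in untreated tumors. SPTAN1 (chromosome 9, 128552558 to 128633662), the alpha-II chain, had 325, 336 and 365 CPM in treated and 346, 335 and 401 CPM in untreated tumors. For both genes the groups overlapped and the highest value was that of untreated replicate 3. Their log2 differences by treatment were 0.04 ± 0.12 and -0.07 ± 0.09. Per length SPTBN1 stood at 3.41 to 3.63 times SPTAN1 in treated and 2.97 to 3.62 times in untreated tumors, so the ratio of beta-II to alpha-II RNA overlapped between groups.

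EPB41 and EPB41L2, which strengthen spectrin-actin contacts, also overlapped between groups. EPB41 (chromosome 1, 28887091 to 29120046) had 130, 140 and 101 CPM in treated and 132, 128 and 119 CPM in untreated tumors, a log2 difference of -0.04 ± 0.10. EPB41L2 (chromosome 6, 130839347 to 131063322) had 122, 139 and 135 CPM in treated and 109, 110 and 145 CPM in untreated tumors, a log2 difference of 0.13 ± 0.11. In the 4-library set EPB41L2 was higher in treated tumors (log2 ratio 0.26) and in the 2-library pair it was lower (-0.11), and this difference was not called (adjusted p = 0.779, edgeR). ANK2 (chromosome 4, 112818109 to 113383740), the ankyrin that ties spectrin to ion transporters, had 147, 142 and 166 CPM in treated tumors. Its untreated values were 142, 156 and 178 CPM, a log2 difference of -0.06 ± 0.09 with overlapping groups.

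In order of mean RPKM over the 6 libraries the genes ran SPTBN1 (73.3 ± 10.1 SD), SPTAN1 (21.6 ± 1.72), ADD3 (19.6 ± 4.13), EPB41L2 (12.3 ± 1.5), ADD1 (9.92 ± 0.885), ANK2 (8.52 ± 0.786), EPB41 (6.25 ± 0.675), DMTN (2.80 ± 3.01) and ADD2 (0.225 ± 0.333). The ranges of SPTAN1 and ADD3 overlapped, as did those of EPB41L2 and ADD1, ADD1 and ANK2, EPB41 and DMTN, and DMTN and ADD2. The ranges of SPTBN1 and SPTAN1, of ADD3 and EPB41L2, and of ANK2 and EPB41 did not overlap. The library kit does not mark strand, so reads of genes that overlap a member cannot be assigned by strand. The largest such partner was DYNC2I2, with counts equal to 10.3% of those of SPTAN1, then ANK2-AS1 with 6.55% of ANK2. No annotated gene overlapped DMTN, ADD1 or EPB41L2.

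Between the naming sets most members differed modestly. The values of the 2 sets did not overlap for 7 of the 9 genes, beside 38.3% of all genes tested, and the exceptions were DMTN and EPB41L2. The log2 differences, 2-library set minus 4-library set, were 0.42 ± 0.11 for ADD3, 0.35 ± 0.12 for SPTBN1, 0.23 ± 0.09 for ANK2 and 0.19 ± 0.10 for SPTAN1. They were -0.20 ± 0.10 for ADD1 and -0.27 ± 0.11 for EPB41. DMTN differed by 0.65 ± 0.20 and EPB41L2 by 0.23 ± 0.11. Without anle138b replicate 3 the difference of DMTN was 1.45, and that of EPB41L2 0.41. Without untreated replicate 3 that of EPB41L2 was 0.06. Of the 8 tested, 1 was called higher (ADD3), beside 8.32% of all genes tested, and 0 lower, beside 7.14%, and nothing is read from that count. The call of ADD3 was lost when replicate 1 or 3 of either group was left out. It was kept, with 2 members called, when replicate 2 of either group was left out. Over all genes, 5960 of 21896 were called without anle138b replicate 2 and 2872 of 22148 without untreated replicate 2. Where the call of ADD3 was lost, 993 to 2801 genes were called.

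The other genes of the membrane skeleton were taken from 9 lists covering further spectrins, EPB41 relatives and ankyrins, membrane anchors, actin and its caps, headpiece proteins, spectrin-repeat relatives, ezrin-type linkers, other actin bundlers and regulators. Of 96 such genes, 87 were tested for treatment, and 1 was higher with anle138b, beside 0.656% of all genes tested, 0 were lower, beside 0.397%, and 86 did not pass (edgeR, adjusted over all genes). Their median log2 difference was 0, beside -0.01 over all genes tested, and they ranged from -0.83 (SPTB) to 0.71 (ACTN3). The count of genes called was 0 without the set term, beside 9 of all 20423 genes. In the 4-library set alone it was 0, beside 92 of 20138. It was also 0 when anle138b replicate 1 or 3 or untreated replicate 1 or 3 was left out. Those 4 fits called 89 to 143 over all genes. The skeleton count was 2 when replicate 2 of either group was left out, beside at least 151 over all genes. The gene first called was among these 2 without anle138b replicate 2 but not without untreated replicate 2. At such shares a list of this size can hold 0 calls, so nothing is read from these counts.

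Lists of close relatives of the members had 0 calls by treatment, beside 1.05% of all genes tested. At that share lists this small can hold 0 calls, so nothing is read from these counts. The most abundant gene per length of most lists is given with others chosen after their values were seen. The other spectrins (0 of 4 tested) included SPTB, the red-cell beta chain, at -0.83 ± 0.21 (adjusted p = 0.127). SPTB had 3.36, 3.99 and 3.96 CPM in treated and 4.99, 7.04 and 8.10 CPM in untreated tumors, which did not overlap, as was so for 8.5% of all genes tested. Ankyrin and EPB41 relatives (0 of 8 tested) were led by KANK2 (-0.34 ± 0.10, adjusted p = 0.246) and included ANK3 at 0.36 ± 0.12 and EPB41L3 at -0.02 ± 0.11. Headpiece proteins, which share with dematin its C-terminal actin-binding fold (0 of 5 tested), were led by ABLIM1 at -0.34 ± 0.09 (adjusted p = 0.17) and included SVIL at 0.24 ± 0.10. Other actin bundlers (0 of 10 tested) had a median of -0.17 and were led by MARCKSL1 (0.68 ± 0.14, adjusted p = 0.0667), with FSCN1 (fascin) at -0.52 ± 0.21. The leading genes of 4 other lists had small differences: 0.02 ± 0.20 for ACTG1 (cytoplasmic gamma actin), 0.01 ± 0.10 for ACTN4 (an alpha-actinin), 0.08 ± 0.10 for MSN (moesin) and 0.16 ± 0.10 for RHOA. SLC2A1, the glucose transporter that dematin and adducin are known to bind in red cells, had 128, 111 and 65.0 CPM in treated and 72.4, 132 and 35.2 CPM in untreated tumors, with overlap (log2 difference 0.44 ± 0.21, adjusted p = 0.652).

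Far more of these genes separated the naming sets. Of the 87 tested, 10 were higher and 14 lower in the 2-library set (22 and 15 when scaled by library size alone), beside 8.32% and 7.14% of all genes tested. With library size alone 2244 and 1242 of all genes tested were called. Without untreated replicate 3 the balance turned, with 7 higher and 3 lower, beside 732 and 261 over all genes. Without anle138b replicate 1 there were 7 and 8, beside 1600 and 629. The genes named here were chosen after their values were seen. The actin bundler FSCN1 was 8.69-fold higher there (3.12 ± 0.20 log2, adjusted p = 1.70e-05), the EPB41 relative EPB41L4A 11.7-fold (adjusted p = 2.98e-05), and PRKCA, a protein kinase C that phosphorylates adducin, 8.34-fold (adjusted p = 2.74e-05). LCP1 (L-plastin, an actin bundler) was lower, at -1.62 ± 0.11 (adjusted p = 3.02e-05). RHAG, a red-cell membrane protein, failed the filter like ADD2, with 3 counts summed over the 4-library set and 41 over the 2-library set. The ratio of its summed levels was 14.6 (exact Poisson 95% interval 4.67 to 73.9). HBB, the adult beta globin, did not follow that direction, at 0.495 and 0.424 CPM in the 2-library set and 0.444 to 2.96 CPM in the 4-library set.

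**Figure D2:**
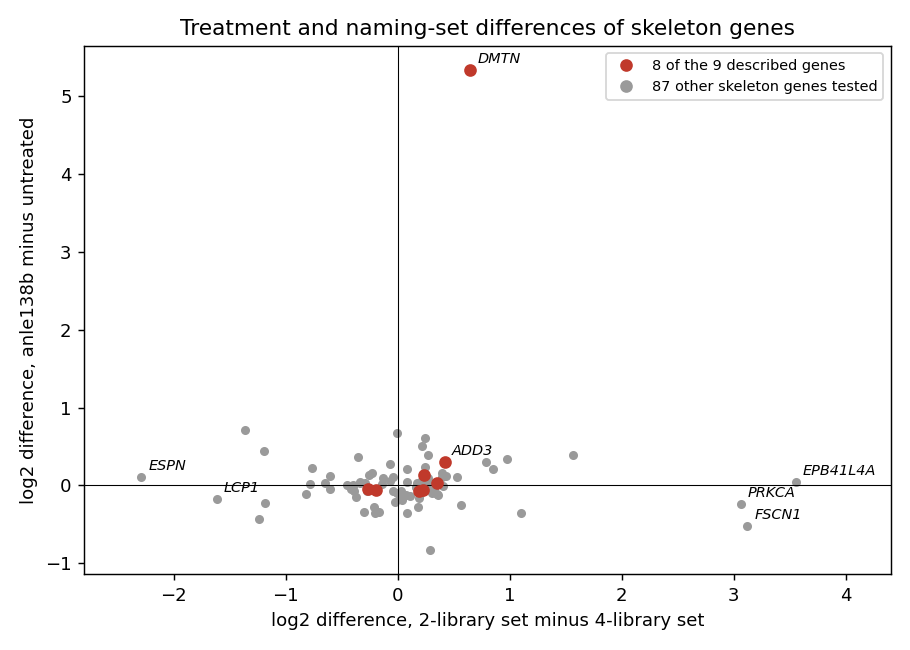
Log2 difference by treatment (vertical) against log2 difference between naming sets (horizontal) for 8 of the 9 described genes and the 87 other skeleton genes tested, with ADD2 absent because it failed the filter. DMTN stands alone at 5.33 on the vertical axis, while the other genes lie between -0.83 and 0.71 there and spread up to 3.55 (EPB41L4A) on the horizontal axis.

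Genes next to DMTN on the chromosome were read for the same treatment difference. Of 6 protein-coding genes that start within 100 kb of the DMTN start, 4 were tested. Of these, 1 was called, beside 1.05% of all genes tested, and nothing is read from a count over so few genes. FGF17, which ends 185 bases before the annotated start of DMTN on the same strand, had 0 or 1 counts in each tumor, and NPM2 0 to 4. FHIP2B, the next gene on the other side, had a log2 difference of 0.02 ± 0.14, NUDT18 one of 0.06 ± 0.22 and REEP4 one of 0.13 ± 0.17. The gene called was HR, the hairless transcriptional corepressor, which starts 84.4 kb away. HR had 23.7, 20.7 and 32.2 CPM in treated and 5.36, 7.78 and 7.98 CPM in untreated tumors, with no overlap. It rose by 1.86 ± 0.16 on the log2 scale, or 3.62-fold (adjusted p = 0.000707, edgeR).

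Within 1000 kb, a window chosen after seeing the values, 22 genes were tested. Of these, 2 were called higher, beside 0.656% of all genes tested, and 0 lower, beside 0.397%. The second was LGI3, which encodes a secreted leucine-rich repeat protein and starts 108 kb away. LGI3 had 19.4, 20.6 and 38.7 CPM in treated and 5.60, 4.96 and 4.07 CPM in untreated tumors, a log2 difference of 2.40 ± 0.25 (adjusted p = 0.00217). LGI3 overlaps SFTPC, which lies on the other strand and was not called (1.05 ± 0.35, adjusted p = 0.325). The 20 genes that were not called had differences from -1.01 to 1.05. HR and LGI3 lost their calls in edgeR without the set term (adjusted p = 0.0715 and 0.0707). That fit called 9 of 20423 genes, against 215 in the main fit. Of 16 alternatives it was the 1 in which either call was lost.

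**Figure D3:**
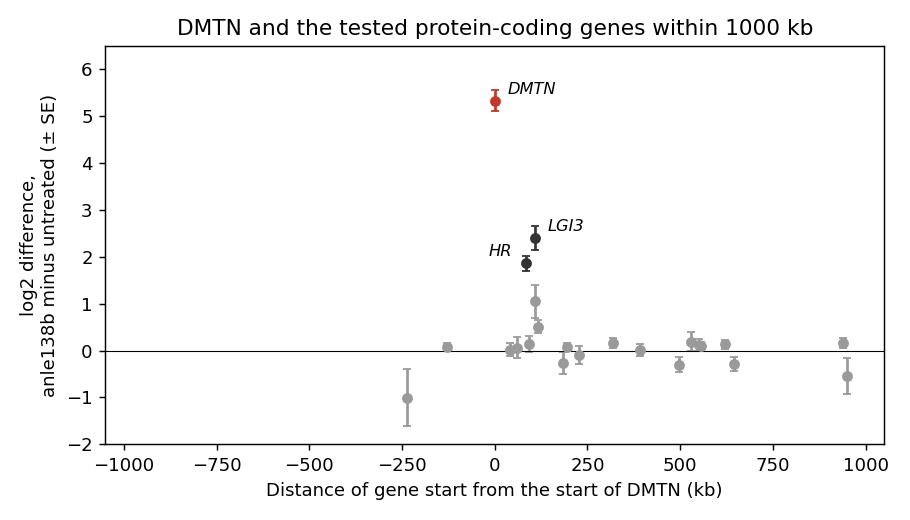
Fitted log2 difference by treatment (± SE) of DMTN and the 22 tested protein-coding genes that start within 1000 kb of it, against distance between starts. HR at 1.86 and LGI3 at 2.40 lie above the 20 genes not called, and genes between DMTN and HR lie near 0.

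Genes with the profile nearest to DMTN were found by the root mean square difference of log2 CPM, each centred on its own mean, over the 6 libraries. HLA-DPB1, a chain of an MHC class II molecule, was nearest at 0.41, followed by HLA-DRB5 at 1, HLA-DRB1 at 1.05, HLA-DRA at 1.08 and LINC02041 at 1.25. HLA-DPB1 had 19.3, 16.2 and 25.3 CPM in treated and 0.731, 0.296 and 1.15 CPM in untreated tumors. Centred on its own mean, it lay farthest from DMTN in untreated replicate 1, at -2.21 against -3.04. HLA-DRA had 40.2, 35.5 and 149 CPM in treated and 0.487, 0.0741 and 1.53 CPM in untreated tumors, so, centred on its own mean, it lay farthest from DMTN in untreated replicate 2 and anle138b replicate 3. Near-identical sequence among HLA genes makes their individual counts uncertain, and LINC02041 had at most 1.13 CPM. The measure favours genes with as large a difference as DMTN, and likeness over 6 libraries is a description.

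**Figure D4:**
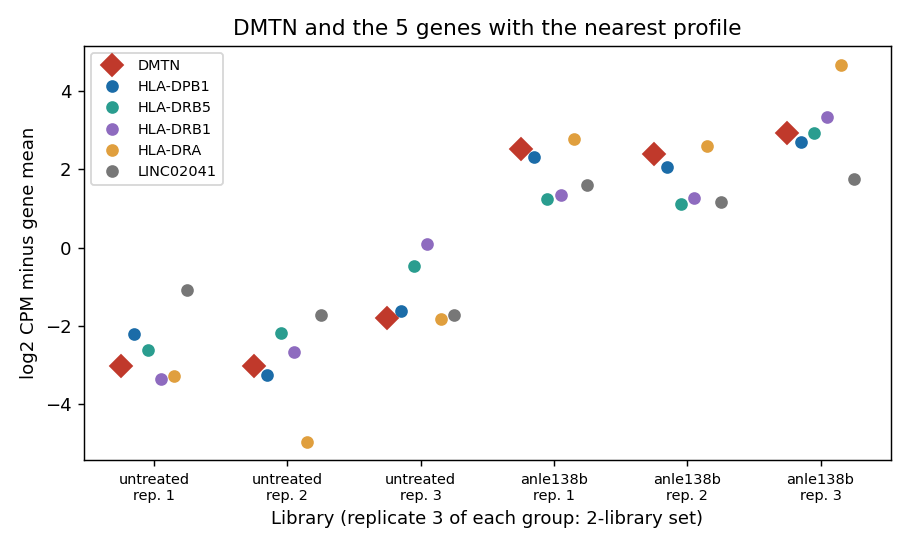
Log2 CPM minus the mean of each gene in the 6 libraries for DMTN (diamonds) and the 5 genes with the nearest profile (circles). HLA-DPB1 follows DMTN most closely, and HLA-DRA departs from it mainly in untreated replicate 2 and anle138b replicate 3.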

How the data were processed

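Messenger RNA of 6 tumors was sequenced, and the authors deposited raw counts of reads per gene, 60617 Ensembl identifiers per library. Per the submitters' processing notes, bcl2fastq 2.17.1.14, STAR 2.5.2a, featureCounts 1.5.0-p1 and build hg38 were used. The sources used here do not give the annotation release or the handling of mouse reads. Identifiers were named with GENCODE 29, which holds 58542 of them.

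Deposited counts were tested with edgeR 4.0.16 (R 4.3.3): TMM scaling, genes kept by filterByExpr per group (minimum count 10, total 15; 20423 genes), quasi-likelihood tests with naming set and treatment as terms (3 residual degrees of freedom), adjusted by Benjamini-Hochberg with a threshold of 0.05. The interaction fit had 2. The SE of a log2 difference was its size divided by the square root of the quasi-likelihood F statistic. CPM are TMM-scaled, and RPKM divides them by kilobases of merged exons. The floor is 3 counts, 0.106 to 0.24 CPM, and covers counting error only. Scripts were tested on simulated data. Alternatives used other scalings, filters and terms, DESeq2 1.42.0, limma 3.58.1 and each library left out.

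The members and lists were chosen with earlier results of these data known. Named genes are the 9 members, genes of each list called by treatment (at most 4), the most abundant gene per length of each list, the 5 profiles nearest to DMTN and protein-coding genes starting within 100 kb of it. Any other gene named was picked with its values in view. Some listed genes that the rule would name are not reported here.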

Additional observations from a re-analysis of the deposited data

How the results depend on the processing

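Over 16 alternatives the log2 difference of DMTN by treatment was 5.20 to 5.86 and the count of described genes called was 1, which is no support, since DMTN was chosen for this difference. The interaction count stayed at 0 in its 8 alternatives, where 0 to 262 of all genes were called (262 of 46484 with no low-count filter). Nothing is read from it. Skeleton genes called by treatment numbered 1, beside 215 over all genes. There were 0 without the set term (9 over all genes) and 0 in the 4-library set alone (92). Upper-quartile scaling gave 2 (275), library size alone 2 (284), no low-count filter 6 (754 of 46484) and DESeq2 2 (412). With a library left out there were 0 to 2, beside at least 89 over all genes. Nothing is read from these skeleton counts. Described genes called between naming sets numbered 1, beside 3157 of 20423 genes tested. Upper-quartile scaling gave 3 (3533 over all genes) and library size alone 4 (3486). No filter gave 4 (6250 of 46484), and a filter of 50 counts in 3 libraries gave 4 (2590 of 13820). DESeq2 gave 2 (3129) and limma voom 2 (3399). The filter by naming set, added after seeing the data, gave 2 (4108 of 21958). With a library left out the count was 0 to 2, beside 993 to 5960 over all genes. Nothing is read from these counts. Skeleton genes called between sets numbered 24, against 37 with library size alone and 38 with no filter. With a library left out they numbered 10 (7 higher and 3 lower, without untreated replicate 3) to 34, and 15 without anle138b replicate 1. Over all genes those fits called 993 (732 higher and 261 lower, without untreated replicate 3) to 5960, and 2229 without anle138b replicate 1. The ADD3 share of adducin RNA in the 2-library set was 70.6% by merged exons and 59.7% by longest transcript, a length that puts ADD1 ahead in untreated replicates 1 and 2 (53.1% and 52.2%). The cause of these changes was not tested. No paired analysis was possible because the labels carry no replicate numbers, and those used here only follow the order of listing; the naming set is a term of the fit instead. Low counts limit ADD2 and untreated DMTN.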
